A study of Drosophila melanogaster with 12 samples.

Results

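This comparison set testes of 2 Drosophila melanogaster meiotic arrest mutants, aly and sa, against each other. Members were the 3 arrays labelled aly and the 3 labelled sa, 6 of the 12 arrays in the series. The other 6 were 3 arrays of bam testes and 3 of yw testes, which are used below to place the genes that differed. They also entered the estimate of the spread behind each p-value and the choice of each gene's brightest probe set. The aly males carried aly2/aly5P, the sa males sa1/sa2, the bam males bam1/bamΔ86, and the yw males had the y,w genotype with no arrest allele named. All flies were 1 day old and kept at 25 °C on standard medium without a drug or other agent. Each array held total RNA of whole dissected testes pooled from roughly 200 pairs, so germ cells, cyst cells and sheath were measured together. The labels call the 3 arrays of a genotype biological replicates, each genotype is represented by a single allele combination, and nothing says whether the flies were siblings.

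In fly spermatogenesis a spermatogonium divides a few times, grows for days as a primary spermatocyte, and in that stage transcribes most of the genes that the meiotic divisions and the spermatid will use. That program depends on tMAC, the testis form of the Myb-MuvB (dREAM) complex, of which Aly is a subunit related to LIN-9, and on testis TAFs, paralogs of general TFIID subunits, of which Sa is the TAF8-like one. Testes of both mutants fill with spermatocytes that do not enter the divisions and hold no spermatids. Mutants of the aly class are known for losing transcripts of meiotic cell-cycle genes as well as of spermatid genes, and mutants of the sa class for losing chiefly the spermatid ones. In bam testes the germ line consists of overproliferating spermatogonia, and yw testes hold every stage through sperm.

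Values are deposited hybridization intensities, and differences are on the scale of log2(intensity + 16), aly minus sa, which understates changes of dim genes. A call needed a difference of at least 2-fold and, in limma, a p under 0.05 after Benjamini-Hochberg adjustment over all 18769 non-control probe sets. A gene was read by its brightest probe set, which gave 11982 genes, and an intensity under 64 is called dim here, a limit set for this work because no detection calls were used. The arrays of a genotype correlated across probe sets at r of 0.995 to 0.997 in aly and 0.987 to 0.996 in sa, and aly with sa arrays at 0.900 to 0.923. The sa arrays stood further apart than the aly arrays. Of the 1426 genes lower in aly, sa replicate 3 was the lowest sa array for 681, and sa replicate 1 was the highest for 828. Of the 944 genes higher in aly, sa replicate 1 was the lowest sa array for 648, and sa replicate 3 was the highest for 637. In both sets sa replicate 3 was thus most often the sa array nearest to aly. Without sa replicate 3 the count of called probe sets was 3046, and without sa replicate 1 it was 2471, against 2708 with all arrays. Exact permutation of 3 arrays against 3 cannot reach p under 0.05, since the smallest two-sided p is 0.10. The adjusted p-values below therefore rest on limma's model of the spread, estimated here over all 12 arrays. With the 6 aly and sa arrays alone in the fit, 2714 probe sets were called.

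The labels were checked first. The sa transcript read 7616, 6878 and 7590 in aly testes, against 112, 112 and 96.2 in sa testes. The groups were far apart, with a difference of 5.91 ± 0.10 (SE, adjusted p = 4.88e-11), the largest higher value among all genes. In yw testes it averaged 1404 ± 195 and in bam testes 23.0 ± 2.23 (SD, n = 3 each). The sa arrays thus carried little sa signal beside the aly and yw arrays. Whether sa1 and sa2 lower the transcript is not given in the sources used here. Other genes, such as topi below, were also many-fold lower in sa, so the low signal alone does not settle the label. The aly probe set did not separate the genotypes: 132, 134 and 148 in aly testes, against 107, 138 and 185 in sa testes (difference -0.02, adjusted p = 0.927). Whether its probes lie outside the lesions of aly2 and aly5P is not given in the sources used here, so it checks nothing about the aly label. As a check of the tissue, the spermatocyte tubulin betaTub85D averaged 5763 ± 171 in aly and 4583 ± 648 in sa, with 15646 ± 764 in yw and 30.4 ± 5.54 in bam (SD, n = 3 each).

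Among differences of at least 2-fold, transcripts lower in aly outnumbered those that were higher, and they differed by more. Of the probe sets, 1096 (5.84%) were higher and 1612 (8.59%) lower in aly than in sa, so that 40.5% of the calls were higher. Of the genes, 944 (7.88%) were higher and 1426 (11.9%) were lower. Every list count below is to be read beside these shares. Centring each array on its median instead turned the split of probe sets to 1580 higher and 1396 lower, 53.1% higher. Without the fold minimum it also turned, to 5815 higher and 3203 lower, 64.5% higher. The median difference over all probe sets was 0.12, and every value below is to be read against that shift. The asymmetry lay in the large differences: 18 genes were at least 8-fold higher and 444 at least 8-fold lower in aly. At 32-fold, 1 gene (sa itself) was higher and 54 were lower. The median fold of the called genes was 2.55 for the higher and 4.46 for the lower ones. In whole testes, fewer cells of a type and less RNA per cell cannot be told apart, and this holds for each result here.

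**Figure D1:**
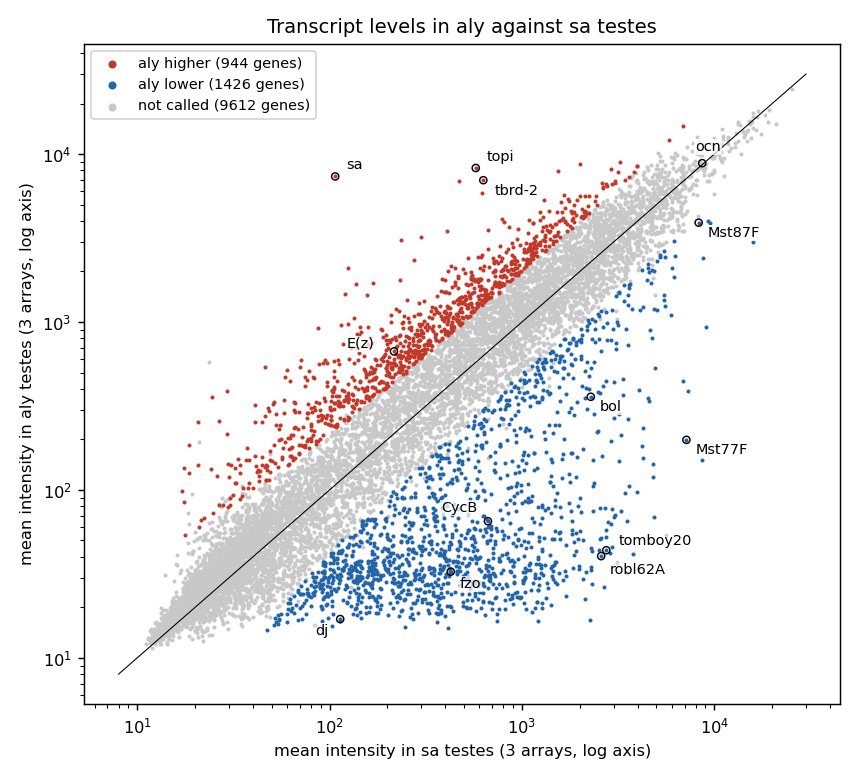
Mean intensity of 11982 genes in aly testes (vertical, log axis) against sa testes (horizontal, log axis), 3 arrays each. Red points are the 944 genes called higher in aly, blue points the 1426 called lower and grey points the rest. The line marks equal levels, and the blue points gather in a band below an aly intensity of 64 that spans a wide range of sa intensities, while sa, topi, tbrd-2 and a few others stand far above the line.

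The genes lower in aly were mostly dim there and measurable in sa. Their median intensity was 43.9 in aly testes, 462 in sa testes, 32.3 in bam testes and 2010 in yw testes. In aly 893 of the 1426 were dim (62.6%), against 17 in sa, and 876 were dim in aly while at 64 or more in sa. Among all 11982 genes, 4852 (40.5%) were dim in aly and 4199 in sa. The call selects genes with a lower level in aly than in sa, so it partly sets this contrast between the genotypes. At the median of these genes, the aly level was 3.31% of the yw level and the sa level 30.7%. All 3 sa arrays lay below all 3 yw arrays for 1029 of these genes and above them for 237. At the median, sa testes therefore held an intermediate level of these transcripts, above the aly level, as the call requires, and under the yw level. For 1416 of the 1426 the aly and sa arrays did not overlap, as for 66.3% of all genes (11.9% were called lower).

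The genes higher in aly were rarely dim in aly or sa. Their median intensity was 866 in aly testes, 298 in sa testes, 416 in bam testes and 150 in yw testes, and 2 were dim in aly against 99 in sa. The aly mean was the highest of the 4 genotype means for 672 of the 944, the bam mean for 215 and the yw mean for 57. All 944 had aly and sa arrays that did not overlap. The call itself selects for arrays that do not overlap. It also keeps sa from having the highest mean and favours aly, and the same count over all genes is not given here. Nothing more is therefore read from these counts.

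Of 9 tMAC genes, aly included, 3 were called higher in aly testes and 0 lower, with a median difference of 0.61. The zinc-finger subunit topi read 8962, 8134 and 7692 in aly, against 536, 554 and 636 in sa. Every aly array exceeded every sa array, with a difference of 3.81 ± 0.13 (SE, adjusted p = 2.71e-09). Its sa level was also below the yw level, at 575 ± 53.6 against 1255 ± 108 (SD, n = 3 each). The homeodomain gene vis read 3728, 3484 and 3850 in aly, against 788, 901 and 866 in sa (difference 2.09, adjusted p = 1.02e-05). The CXC-domain gene tomb read 2879, 3025 and 2861 in aly, against 979, 1253 and 1423 in sa (difference 1.27, adjusted p = 0.00017). The nuclear factor comr missed the 2-fold minimum at 0.90 (adjusted p = 0.00466), and passed it at 1.08 after median centring and at 1.00 without sa replicate 3. The remaining members were achi at 0.55, wuc, a LIN-52 relative, at 0.58, and mip40 at 0.36 and Caf1-55 at 0.61, which are shared with the somatic complex. None of these 4 was called.

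Of the 5 testis TAFs 2 were called higher and 1 lower, with a median of 0.96. The list holds sa itself, the gene mutated in the sa testes, which is one of those called higher. Among its 4 partners 1 was higher, 1 lower and 2 not called. The TAF6-like mia averaged 2511 ± 237 in aly and 1108 ± 75.2 in sa (SD, n = 3 each), a difference of 1.17 (adjusted p = 5.38e-06). The TAF5-like can read 2055, 1488 and 1863 in aly, against 955, 1080 and 739 in sa; at 0.96 it was not called, though median centring (1.13) and ribosomal protein centring (1.02) moved it past the limit. The TAF4-like nht was not called at 0.54. The TAF12-like Taf12L went the other way, with 4198, 3847 and 3994 in aly, against 9665, 9422 and 8652 in sa (difference -1.20, adjusted p = 2.37e-05). Its other, dim probe set was not called at 0.37, so the probe sets of Taf12L disagree.

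General transcription factors were included for comparison with their testis paralogs. Of 12 general TAFs and Tbp 3 were called higher and 0 lower, with a median of 0.26. Taf1, the scaffold subunit of TFIID, read 2382, 2057 and 1988 in aly, against 401, 443 and 440 in sa, with no overlap (difference 2.28 ± 0.09 SE, adjusted p = 5.24e-09). Tbp, the TATA-binding protein, averaged 671 ± 64.1 in aly and 235 ± 34.0 in sa, and Taf10 averaged 1315 ± 103 in aly and 485 ± 94.6 in sa (SD, n = 3 each). The other 9 lay between -0.88 and 0.36. Of 7 somatic Myb-MuvB and E2F genes, 2 were called higher, mip130 and Rbf2, both at 1.15, and 0 lower. Both calls were lost with a pseudocount of 64.

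Of 8 chromatin factors and early transcripts of the spermatocyte 4 were called higher in aly, 0 lower and 4 not called, and the median was 1.01. The testis bromodomain gene tbrd-2 read 8788, 6377 and 5806 in aly, against 482, 785 and 621 in sa. The lowest aly array was several times the highest sa array (difference 3.44 ± 0.18 SE, adjusted p = 8.47e-08). Its paralogs tbrd-1 and tbrd-3 differed by 2.11 (adjusted p = 2.54e-08) and 1.36 (adjusted p = 7.6e-05), and Mi-2, a nucleosome remodeller, by 1.22 (adjusted p = 2.03e-06). Mi-2 was highest in bam, with means of 2710 in bam, 1098 in aly, 461 in sa and 290 in yw. In bam tbrd-1, tbrd-2 and tbrd-3 averaged 86.9, 25.5 and 73.8. All 3 bromodomain genes were nearer the yw mean in sa than in aly: tbrd-2 averaged 6990 ± 1583 in aly, 630 ± 152 in sa and 883 ± 80.6 in yw. The spermatocyte zinc-finger gene kmg, a partner of Mi-2 that was named after its value was seen, missed the fold limit at 0.79, and the early spermatocyte tubulin betaTub85D was not called at 0.34. The other members not called, also named after their values were seen, were dany at 0.40 and dbf at -0.77 (adjusted p = 0.000108), on the lower side.

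Regulators of the meiotic divisions included 4 of 8 called lower in aly and 0 called higher, with a median of -1.01. CycB, the mitotic and meiotic cyclin, read 55.1, 64.4 and 75.8 in aly, against 663, 675 and 658 in sa. The groups did not overlap, and the difference was -3.08 ± 0.13 (SE, adjusted p = 1.38e-08). In bam testes CycB averaged 2940 ± 107 and in yw testes 217 ± 45.3 (SD, n = 3 each), so its sa level was above yw and its aly level below. The translational regulator bol read 373, 343 and 360 in aly, against 3045, 2658 and 1138 in sa. The groups did not overlap although sa replicate 3 was less than the other sa arrays (difference -2.50 ± 0.29 SE, adjusted p = 5.32e-05). The 2 other, dim probe sets of bol were not called. The Cdc25 phosphatase twe, which drives entry into the first division, read 70.5, 53.5 and 64.7 in aly, against 146, 163 and 154 in sa (difference -1.12, adjusted p = 0.000299). Its call was lost with quantile normalization (-0.75), median centring (-0.94) and a pseudocount of 64 (-0.78). Cks30A, a kinase subunit, differed by -1.22 (adjusted p = 8.57e-06).

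The RNA-binding regulators of CycB translation in spermatocytes were not called. Rbp4 read 13545, 12570 and 11978 in aly, against 7129, 8337 and 8942 in sa, a difference of 0.65 (adjusted p = 0.00655) under the fold limit. Its partner fest read 3668, 2834 and 3937 in aly, against 9013, 7198 and 4165 in sa, and was not called at -0.90 (adjusted p = 0.012). Without sa replicate 3 fest differed by -1.22 and was called. Chromosome pairing and cohesion genes had 4 of 8 higher and 1 lower. SA2, also called stromalin in meiosis, read 1164, 1040 and 1276 in aly, against 272, 385 and 354 in sa (difference 1.74, adjusted p = 1.47e-06), and the cohesion proteins sunn (1.47) and ord (1.36) were higher as well. The fourth was mod(mdg4), whose probe sets disagree, and the lower one was tef, a homolog-pairing gene named after its value was seen, at -1.17. Spindle checkpoint and anaphase-promoting genes had 2 of 19 higher (Zw10 and Cdc16) and 1 lower, beside 7.88% and 11.9% of all genes. Without the fold minimum 8 were higher and 3 lower. The Cdc16 call was lost with a pseudocount of 64 (0.999) and with replicates 1 and 2 alone (0.98). The lower gene was fzr2, an activator of the anaphase-promoting complex, with 134, 142 and 135 in aly, against 520, 485 and 709 in sa (difference -1.92, adjusted p = 5.43e-06).

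**Figure D2:**
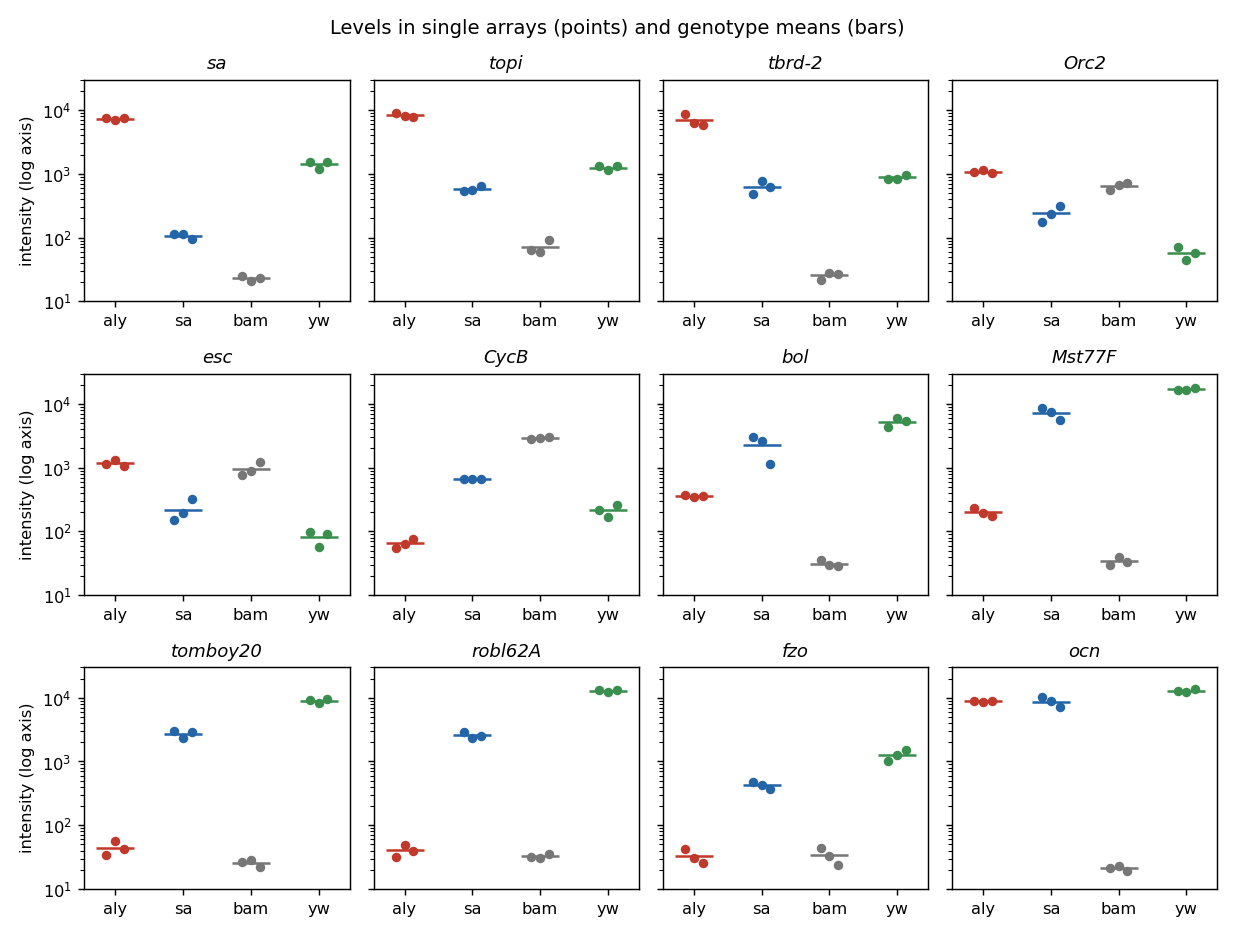
Intensity (log axis) of 12 genes in each of the 3 arrays of aly, sa, bam and yw testes, with bars at the genotype means. The points show sa, topi, tbrd-2, Orc2 and esc higher in aly than in sa, CycB, bol, Mst77F, tomboy20, robl62A and fzo lower, and ocn overlapping at 8832 in aly and 8650 in sa.

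Testis paralogs of mitochondrial proteins made up the list with the most lower members. Of 26 measured, 20 were called lower and 0 higher, with a median of -3.12, against 11.9% of all genes called lower. These genes encode germ-line copies of respiratory-chain, ATP synthase and import subunits used while spermatid mitochondria fuse and elongate. The import receptor tomboy20 read 34.1, 55.5 and 41.6 in aly, against 2998, 2360 and 2873 in sa (difference -5.54 ± 0.13 SE, adjusted p = 2.41e-10). The cytochrome oxidase subunit COX5BL read 22.1, 25.9 and 21.9 in aly, against 1766, 1333 and 1965 in sa (difference -5.42, adjusted p = 1.35e-10). The ATP synthase coupling factor ATPsynCF6L read 26.1, 27.3 and 30.2 in aly, against 1471, 1275 and 1300 in sa (difference -4.96, adjusted p = 4.88e-11). All 3 were dim in every aly array, with bam means of 25.5, 18.9 and 24.2, and each was higher in yw than in sa. The Tim50-like ttm3 differed by -4.45 (adjusted p = 2.82e-10).

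The 6 mitochondrial paralogs that were not called, named after their values were seen, included 4 bright genes. COX4L averaged 4901 ± 218 in aly and 2973 ± 223 in sa, ATPsynGL 5846 ± 337 in aly and 4089 ± 278 in sa, ATPsynbetaL 4686 ± 152 in aly and 2393 ± 319 in sa, and Cyt-c1L 7223 ± 277 in aly and 3689 ± 353 in sa (SD, n = 3 each). Each of these 4 lay above its sa level in all aly arrays and under the fold limit, at 0.51 to 0.97. The remaining members were Tim17a2 at 0.21 and Hsp60C at -0.15. Paralogs of the same respiratory complex were thus called lower in some cases and not called in others, COX5BL and COX4L for cytochrome oxidase and ATPsynCF6L and ATPsynGL for ATP synthase. Among 9 genes of mitochondrial dynamics 1 was called, fzo, the spermatid mitofusin, at 42.4, 30.1 and 25.3 in aly, against 483, 432 and 364 in sa (difference -3.19, adjusted p = 2.46e-07).

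Genes listed as axonemal were called in both directions. Of these 24 genes 8 were lower and 3 higher, with a median of -0.10. In both genotypes 9 of the 24 were dim, and 12 were dim in aly, so that median is not read. The outer-doublet filament gene Tektin-A read 42.0, 34.1 and 30.9 in aly, against 1691, 1492 and 1199 in sa (difference -4.83 ± 0.14 SE, adjusted p = 7.53e-10). Tektin-C (-3.81) and the radial spoke genes Rsph3 (-3.79) and Rsph9 (-3.74) also fell, with no overlap of arrays. The 3 higher members, named after their values were seen, were the dynein chains Dhc36C (1.29), Dhc98D (1.10) and Sdic3 (1.70), the last of a cluster of near-identical copies that a probe set may not separate. Of 7 roadblock-type dynein light chains 4 were lower and 0 higher, with a median of -2.04. The testis form robl62A read 32.2, 49.0 and 39.8 in aly, against 2885, 2345 and 2515 in sa (difference -5.53 ± 0.11 SE, adjusted p = 8.78e-11). The widely expressed robl, named for comparison after its value was seen, read 5056, 5578 and 5113 in aly, against 4910, 5415 and 6571 in sa, overlapping groups (difference -0.09, adjusted p = 0.584).

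The Mst CGP family, small cysteine-glycine-proline proteins of the sperm tail, was called in 1 of 7 members, which was lower, and had a median of 0.32. That member was Mst87F, with 3601, 4278 and 3837 in aly, against 9053, 7947 and 7879 in sa (difference -1.08, adjusted p = 5.68e-06), and its call was lost after median centring (-0.90). Mst98Ca, named after its value was seen, averaged 7996 ± 522 in aly and 8091 ± 683 in sa (SD, n = 3 each), and its arrays overlapped. Leucyl aminopeptidases of the sperm gave 2 of 5 lower and 0 higher, with a median of 0.49. The other 3 passed the adjusted p on the higher side under the fold limit, and 1 of them was called higher with median centring or array weights. S-Lap5 read 103, 117 and 109 in aly, against 2409, 1896 and 2779 in sa (difference -4.22, adjusted p = 1.27e-09), and S-Lap7 differed by -1.87 (adjusted p = 3.04e-08). Of 7 Y-linked fertility genes 1 was called, the phosphatase gene Pp1-Y2, lower at -2.14 (adjusted p = 1.53e-06). All 7 were dim in aly and 5 of them also in sa, so most could show little difference, and the list's median of -0.28 is not read. Without sa replicate 3 the lower count was 2.

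Genes of spermatid differentiation and sperm chromatin were lower in part. Of 17 spermatid genes 9 were lower and 1 higher, with a median of -1.53. Mst33A, a male-specific transcript, read 28.4, 34.8 and 39.2 in aly, against 1473, 1089 and 555 in sa (difference -4.29, adjusted p = 4.17e-07). The sperm-tail gene dj, don juan, read 17.1, 17.0 and 16.9 in aly, against 153, 125 and 62.4 in sa (difference -1.90, adjusted p = 5.94e-05). Its paralog djl, at 19.0 ± 1.61 in aly and 576 ± 242 in sa (SD, n = 3 each), was lower too, as was snky (-3.26), a sperm membrane gene needed at fertilization. The ocn transcript, of the janus gene family, read 8876, 8697 and 8923 in aly, against 10136, 8760 and 7054 in sa. These groups overlapped (difference 0.05, adjusted p = 0.743), and its neighbour janB was not called at -0.72 (adjusted p = 0.014). The 1 higher member was nsr, a regulator of spermatogenesis named after its value was seen, at 1.36.

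Of 11 sperm chromatin genes 5 were lower and 1 higher, with a median of -0.76. Mst77F, a linker-histone-like protein of mature sperm, read 229, 192 and 175 in aly, against 8513, 7475 and 5505 in sa. No arrays overlapped, and the difference was -5.05 ± 0.15 (SE, adjusted p = 1.01e-09). The sperm telomere gene ddbt fell at -3.18 (adjusted p = 5.65e-08) and CG14835 at -2.80 (adjusted p = 3.82e-08). The protamine genes ProtA and ProtB are near copies, and reads of such pairs are uncertain: ProtB differed by -1.97 (adjusted p = 5.47e-05) and ProtA, named after its value was seen, by -0.76 and was not called. The higher member, also named after its value was seen, was BigH1, the germ-line linker histone of earlier cells, with 4554 ± 124 in aly and 1805 ± 222 in sa (SD, n = 3 each; difference 1.33).

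The cup and comet genes, known for transcription after meiosis with messages that localize to the spermatid tail end, had 8 of 15 lower and 1 higher, with a median of -2.07. The transcript c-cup read 41.9, 61.8 and 44.6 in aly, against 1074, 935 and 1078 in sa (difference -4.01, adjusted p = 2.63e-09). For w-cup the sa arrays were spread widely, at 1424, 539 and 231, against 27.8, 28.6 and 21.8 in aly; the difference of -3.80 became -4.41 without sa replicate 3 and -3.14 without sa replicate 1. The higher member was hale, named after its value was seen, at 4191 ± 328 in aly and 1848 ± 98.5 in sa (SD, n = 3 each; difference 1.17).

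Proteasome genes divided by kind. Of 13 testis paralogs of proteasome subunits 6 were lower and 2 higher, with a median of -0.79, while of 15 general subunits 0 were called in limma with the fold minimum, with a range of -0.22 to 0.37. At an unadjusted p under 0.05 and any fold, 6 of those 15 were higher and 1 lower. Prosbeta5R1, a testis copy of a catalytic subunit, read 21.4, 25.0 and 21.6 in aly, against 1423, 1162 and 1428 in sa (difference -5.12 ± 0.09 SE, adjusted p = 4.88e-11). Prosalpha6T differed by -4.41 and Prosalpha4T2 by -3.06. The 2 higher paralogs, named after their values were seen, were Rpt4R (1.27) and Prosbeta2R1 (1.23). In the individualization list 4 of 15 were lower and 3 higher. The lower ones included gudu, an armadillo-repeat protein of individualization, at -3.32 (adjusted p = 1.15e-09), and klhl10, a Cullin-3 adaptor, at -2.03. In sa testes klhl10 read 227, 218 and 34.3, so that leaving out sa replicate 3 gave -2.78. The higher ones included Dark, the apoptosome adaptor, at 1.65.

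Cap-binding and translation factors had 3 of 15 lower and 2 higher. The testis cap-binding paralog eIF4E4 read 43.4, 51.5 and 29.1 in aly, against 1089, 780 and 597 in sa (difference -3.85, adjusted p = 1.01e-07). The scaffold eIF4G2, needed for meiosis, read 1438, 1007 and 1117 in aly, against 6590, 5896 and 2138 in sa, again with sa replicate 3 the nearest to aly (difference -1.88, adjusted p = 0.00233). The ubiquitous eIF4E1 differed by -1.17 (adjusted p = 2.39e-05). Of the higher ones eIF4EHP, a translational repressor at 1.80, has probe sets that disagree, and eIF4E3, named after its value was seen, was at 1.09. Among 41 ribosomal proteins the median was -0.03, and 3 were called, each a paralog: RpL10Aa (-4.16) and RpS28-like (-1.85) lower, RpL22-like (1.45) higher.

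**Figure D3:**
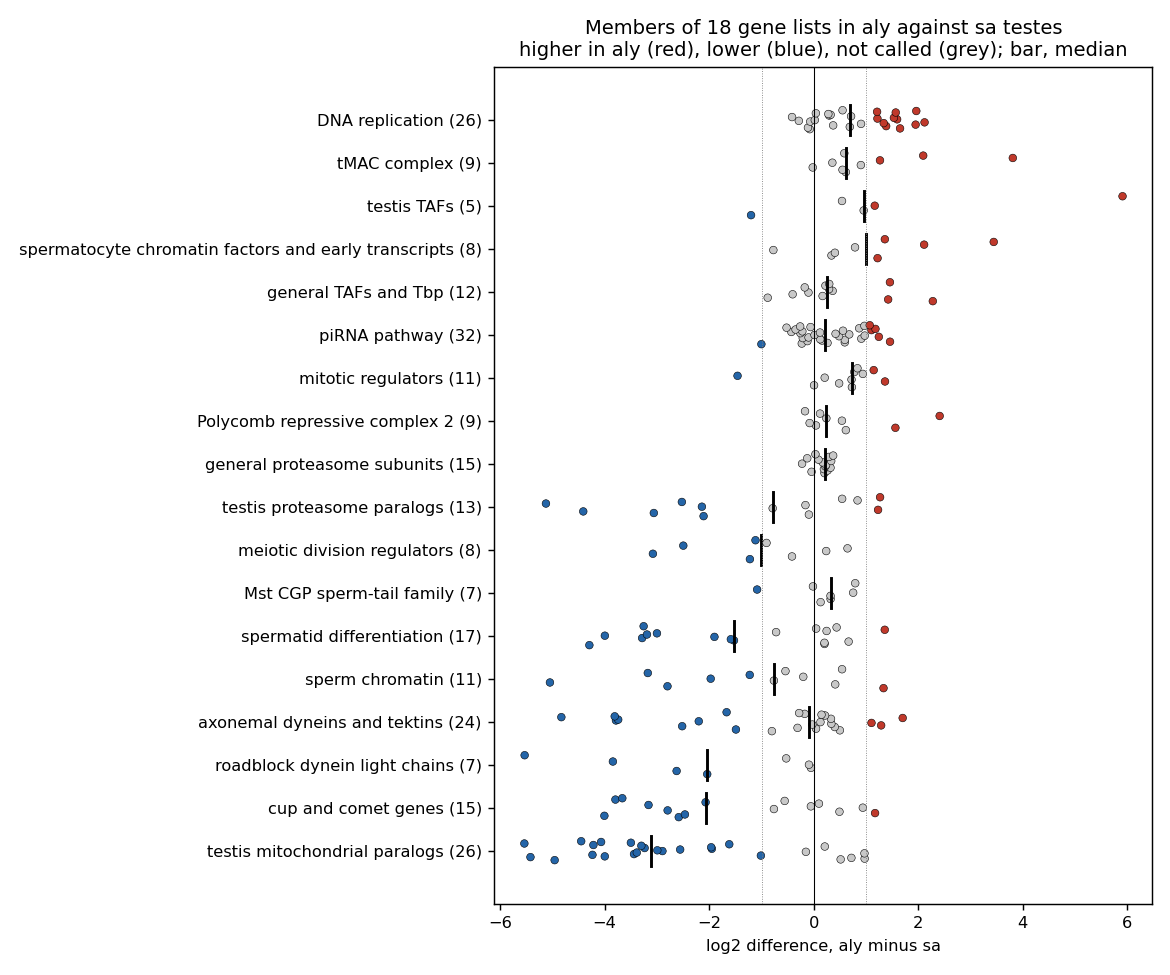
Log2 difference, aly minus sa, of each measured member (points) of 18 gene lists, with the number of members in parentheses and a bar at the list's median. Red points are called higher in aly, blue points lower and grey points not called, and dotted lines mark 2-fold. The mitochondrial, roadblock and cup and comet lists have medians of -3.12, -2.04 and -2.07, and DNA replication has a median of 0.70.

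DNA replication genes were the list with the most higher members by count, though not by share. Of 26 measured, 11 were higher and 0 lower, with a median of 0.70, against 7.88% of all genes higher. The list of spermatocyte chromatin factors and early transcripts and that of pairing and cohesion genes each had 4 of 8 higher. Their medians were 1.01 and 0.84. Replication is a property of the spermatogonial divisions and of premeiotic S phase, before the spermatocyte grows. Orc2, an origin recognition subunit, read 1071, 1167 and 1029 in aly, against 177, 239 and 317 in sa. The groups did not overlap (difference 2.12 ± 0.19 SE, adjusted p = 6.68e-06), with a mean of 643 ± 83.9 in bam and 57.6 ± 13.1 in yw (SD, n = 3 each). The helicase subunits dpa and Mcm5 differed by 1.96 (adjusted p = 1.47e-05) and 1.95 (adjusted p = 1.31e-05), and the licensing factor Cdc6 by 1.65 (adjusted p = 1.56e-06). In sa testes dpa read 290, 339 and 453 and Mcm5 368, 432 and 603, with sa replicate 3 nearest to aly in both. The S-phase gene PCNA, named after its value was seen, averaged 2546 ± 101 in aly and 2510 ± 64.7 in sa (SD, n = 3 each), and its arrays overlapped (difference 0.02, adjusted p = 0.887). Of the 26 genes 15 were not called.

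Mitotic regulators had 2 of 11 higher and 1 lower, beside 7.88% and 11.9% of all genes, with a median of 0.73, and median centring gave 4 higher. The chromosomal passenger kinase aurB read 1285, 1327 and 1257 in aly, against 419, 516 and 549 in sa (difference 1.36, adjusted p = 0.000183), and the anillin gene scra differed by 1.15. The lower gene was mud, a spindle-orientation protein, with 208, 146 and 159 in aly, against 826, 662 and 215 in sa; its adjusted p was 0.022, and the call was lost with quantile normalization (-1.16), an adjusted p limit of 0.01 and without aly replicate 2 (-1.36), aly replicate 3 (-1.42), sa replicate 1 (-1.10) or sa replicate 2 (-1.25). Of 12 centriole genes 2 were higher and 3 lower, beside the same shares of all genes. The scaffold Sas-4 had the largest difference, 1.95, with 1083 ± 36.7 in aly and 275 ± 69.7 in sa (SD, n = 3 each). Of 32 piRNA pathway genes 5 were higher and 1 lower, beside the same shares of all genes, with a median of 0.21. The exonuclease Nbr (1.46), fs(1)Yb (1.24), and the Tudor-domain genes tapas (1.18) and spn-E (1.10) were among the 5. Median centring gave 9 higher in that list, ribosomal protein centring 7 and leaving out aly replicate 2 gave 8. The 1 lower call was lost with the aly and sa arrays alone, with the replicate block, with each rescaling, a pseudocount of 64, an adjusted p limit of 0.01 and on leaving out any 1 array but sa replicate 3.

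A few Polycomb genes were called higher. In the list of Polycomb repressive complex 2, the histone H3 lysine methyltransferase complex, 2 of 9 were higher and 0 lower. The shares of all genes were 7.88% and 11.9%, and the list's median was 0.24, so single genes are described here and not the list. The catalytic gene E(z) read 686, 667 and 652 in aly, against 196, 222 and 230 in sa (difference 1.56 ± 0.08 SE, adjusted p = 4.52e-08). The gene esc, whose product stimulates E(z), read 1161, 1341 and 1074 in aly, against 150, 194 and 317 in sa (difference 2.41 ± 0.27 SE, adjusted p = 3.37e-05). The core subunit Su(z)12 was not called at 0.24 (adjusted p = 0.202), with 471 ± 7.32 in aly and 397 ± 28.5 in sa (SD, n = 3 each). The means of E(z) were 959 ± 63.7 in bam and 184 ± 13.6 in yw, and those of esc were 969 ± 247 in bam and 81.8 ± 21.9 in yw (SD, n = 3 each). In the complex 1 list 1 of 5 was higher, the ubiquitin ligase gene Sce (1.10), and 0 lower, with a median of 0.08. Trithorax genes had 1 of 15 higher, the Brahma subunit Snr1 (1.29), and 2 lower, Dpy-30L2 (-1.80) and kis (-1.08), beside 7.88% and 11.9% of all genes, so nothing is read from the list. The kis arrays overlapped, and its call was lost with quantile normalization (-0.81), median centring (-0.90), a pseudocount of 64 (-0.73), an adjusted p limit of 0.01 and without aly replicate 2 (-0.87), sa replicate 1 (-0.90) or sa replicate 2 (-0.91).

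Stem cell and spermatogonial genes were mostly not called, with 2 of 16 higher and 1 lower, beside 7.88% and 11.9% of all genes. The differentiation factor bam, required for spermatogonia to stop dividing, read 651, 648 and 572 in aly, against 287, 309 and 313 in sa. The arrays did not overlap, and the difference of 1.00 (adjusted p = 0.000511) lay on the fold limit, so its call was lost with a pseudocount of 64, with array weights and without aly replicate 1, aly replicate 2 or sa replicate 1. The zinc-finger gene esg was higher at 1.37 and the TRIM-NHL gene mei-P26 lower at -1.33. Of 8 tubulin genes 0 were called in limma with the fold minimum, and 5 were higher and 0 lower at an unadjusted p under 0.05. Of 4 heat shock genes 0 were called, with 2 lower at an unadjusted p under 0.05, and of 6 antimicrobial genes 0 were called, with 2 higher at that p.

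Most of the genes with the largest differences have no name beyond a CG number. Of the lower genes 887 (62.2%) and of the higher genes 390 (41.3%) were uncharacterised in this sense, against 43.5% of all genes. Among the 54 genes at least 32-fold lower, 47 were. In those 54 the aly level ran from 16.5 to 199, the sa level from 1170 to 8615 with a median of 2298, and the median was 25.6 in bam and 6339 in yw. CG9016 had the lowest difference, with 51.1, 60.2 and 49.8 in aly, against 7568, 5507 and 3830 in sa (difference -6.29 ± 0.22 SE, adjusted p = 2.86e-09). CG30039 (-6.16), CG30487 (-6.07) and CG16719 (-6.06) followed. CG8701 averaged 151 ± 42.3 in aly and 8615 ± 628 in sa (SD, n = 3 each).

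The higher uncharacterised genes were of several kinds when bam and yw are set beside them. CG14841 read 1934, 2287 and 2095 in aly, against 104, 121 and 151 in sa (difference 3.92 ± 0.16 SE, adjusted p = 1.02e-08), with means of 23.4 in bam and 1319 in yw. CG34460 averaged 3208 ± 194 in aly and 299 ± 21.9 in sa, with 3928 ± 293 in yw and 417 ± 86.0 in bam (SD, n = 3 each), so that aly stood near yw and sa near bam. CG4133 averaged 1473 ± 25.9 in aly, 121 ± 32.5 in sa, 29.7 ± 1.46 in bam and 25.6 ± 4.69 in yw. CG10051 averaged 357 ± 15.7 in aly and was dim in the other 3 genotypes, with 24.6 ± 0.347 in sa (difference 3.20, adjusted p = 2.28e-10). CG7907 averaged 6902 ± 539 in aly, 471 ± 37.2 in sa and 668 ± 108 in yw.

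The difference between yw and bam testes shares no array with the difference between aly and sa, and places the genes between testes with all stages and testes with spermatogonia. There 2223 genes (18.6%) were higher and 4106 (34.3%) lower in yw than in bam. Of the 1426 genes lower in aly, 1136 (79.7%) were higher in yw, 116 lower and 174 not called. Those 1136 were 51.1% of all genes higher in yw. Of the 944 genes higher in aly, 517 (54.8%) were lower in yw than in bam, 149 higher and 278 not called, and the 517 were 12.6% of all genes lower in yw. Across 11982 genes, which are not independent replicates, the 2 differences had a Pearson r of -0.58 and a Spearman rho of -0.29. CycB and topi ran against that trend: CycB was lower in aly and lower in yw than in bam, and topi was higher in aly and higher in yw than in bam.

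**Figure D4:**
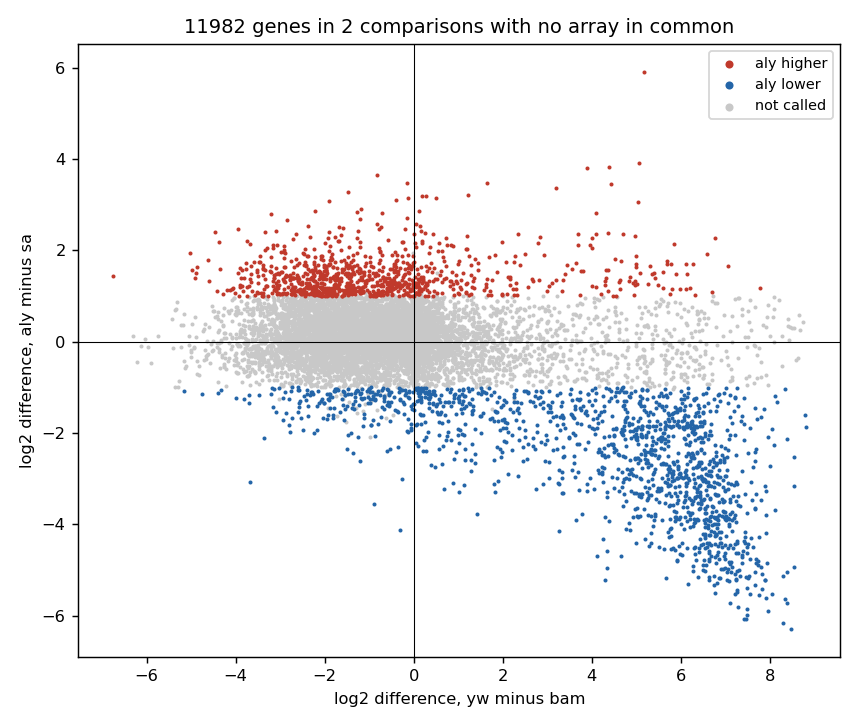
Log2 difference, aly minus sa (vertical), against log2 difference, yw minus bam (horizontal), for 11982 genes, from sets of arrays with none in common. Red points are higher in aly, blue points lower and grey points not called. Blue points crowd the lower right, where 1136 of the 1426 lower genes were also called higher in yw than in bam, while 517 of the 944 higher genes were lower in yw.

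By chromosome arm, as named in RefSeq, the share of genes lower in aly ran from 9.58% on X to 14.3% on 2L among the large arms, and the share higher from 7.04% on 3L to 8.72% on X. The small chromosome 4 had 12 of 65 genes lower and 1 higher.

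Somatic markers were summed in each array, because whole testes carry other tissue. Accessory gland markers, which code for seminal fluid proteins, summed to 6267 to 9068 in aly and 10764 to 23443 in sa, and to 22769 to 99176 in bam and 11939 to 70950 in yw. Of 13 such markers 2 were called lower in aly and 0 higher, with a median of -1.13. Acp36DE read 317, 139 and 545 in aly, against 1281, 2617 and 1918 in sa (difference -2.61, adjusted p = 0.0207), and the transcription factor prd was the other, at -1.94. The prd arrays did not overlap, at 48.3, 44.0 and 55.4 in aly, against 213, 265 and 225 in sa. Its adjusted p in limma of 0.028 became 0.0527 to 0.0775 on leaving out any 1 of the 6 arrays, which ended the call. The difference stayed near -1.94 and was -1.85 at its smallest. The spread behind these p-values was estimated with the bam and yw arrays too. There prd read 467, 147 and 48.0 in bam, and 98.0, 328 and 95.6 in yw. The Acp36DE call was lost without aly replicate 2 (-2.12) or sa replicate 2 (-2.37). With the aly and sa arrays alone in the fit, or with array weights, 9 of the 13 were called lower. That smaller fit leaves out the bam and yw arrays, whose accessory gland sums spread most widely, so the count of 2 depends on including them. Hub markers gave 2 of 4 lower, the cadherins shg (-1.82, adjusted p = 5.4e-05) and CadN (-1.05). The CadN call was lost with quantile normalization (-0.94), median centring (-0.87), ribosomal protein centring (-0.98), a pseudocount of 64 (-0.55) and without sa replicate 2 (-0.95). Hub markers summed to 183 to 235 in aly and 475 to 539 in sa. The hub ligand gene upd1, named after its value was seen, was level at 0.02.

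Cyst cell markers gave 1 of 11 lower (so, at -1.04) and 0 higher, and summed to 1299 to 1800 in aly and 2136 to 2812 in sa. The so call was lost with quantile normalization (-0.65), median centring (-0.86), ribosomal protein centring (-0.98), a pseudocount of 64 (-0.83), array weights (-0.92) and without aly replicate 2 (-0.94) or sa replicate 1 (-0.99), and 2 of the 11 were lower without aly replicate 1, aly replicate 3 or sa replicate 3. Muscle and pigment sheath markers gave 1 of 13 lower, the titin-like sls, with a median of 0.01 and sums of 2164 to 3089 in aly and 2507 to 3792 in sa. The sls probe sets were all lower in aly, at -1.93, -1.29 and -0.98, the last under the fold limit and not called. Hemocyte markers gave 1 of 11 higher and 2 lower, beside 7.88% and 11.9% of all genes, with sums of 1577 to 2764 in aly and 2788 to 3313 in sa. Fat body markers gave 1 of 9 higher and 1 lower, with sums of 1621 to 2145 in aly and 1086 to 1622 in sa. Seminal vesicle and duct markers gave 0 of 6 calls in limma, and 0 at an unadjusted p under 0.05, with sums of 472 to 785 in aly and 820 to 1188 in sa. With the aly and sa arrays alone in the fit 1 of the 6 was called lower, CG17097 (-2.09, adjusted p = 0.00672), as it was with array weights. In the main fit the spread of CG17097 included 8513, 2621 and 979 in bam, and 817, 6542 and 526 in yw. Hub, cyst, hemocyte, duct and accessory gland sums were thus lower in every aly array than in any sa array. The larger set of calls in whole testes, the genes lower in aly, has the same direction. Fat body sums leaned the other way, at 1621 to 2145 in aly and 1086 to 1622 in sa. Muscle and pigment sheath sums overlapped. A sum follows its brightest members, and shg alone averaged 89.0 in aly and 355 in sa. The median differences of single markers were 0.09 for hemocyte, -0.09 for duct, -0.35 for cyst, -0.51 for hub and -1.13 for accessory gland markers. The part of these tissues in any result above was not tested.

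**Figure D5:**
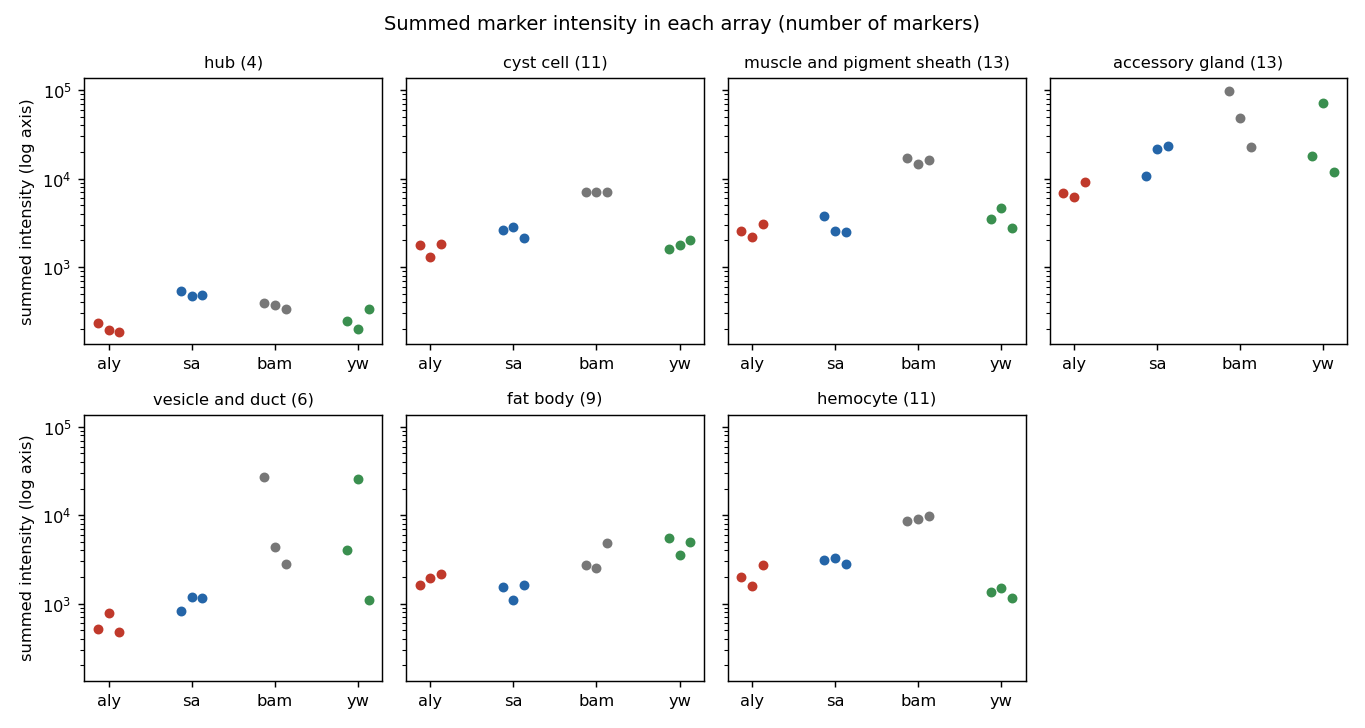
Summed intensity (log axis) of the measured markers of 7 somatic tissues in each array of aly, sa, bam and yw testes, with the number of markers in parentheses. Accessory gland sums run from 6267 to 9068 in aly and from 10764 to 23443 in sa, and in bam and yw they spread up to 99176.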

How the data were processed

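Total RNA of whole testes was hybridized to Affymetrix Drosophila Genome 2.0 arrays, 3 for each of 4 genotypes. The authors deposited 1 linear intensity per probe set and array, without detection calls or raw scans used here. Per the labels' design text, scans were exported from the Affymetrix suite and normalized with RMA in limma, and the submitters' processing notes also name MAS5. Which of these made the deposited intensity values is not stated, and no versions are named. The table held 18952 probe sets with values of 9.35 to 25798.63, and 183 control probe sets were left out.

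Here log2(intensity + 16) was fitted in limma 3.58.1 (R 4.3.3) with lmFit and eBayes, with a mean per genotype over all 12 arrays, two-sided, with Benjamini-Hochberg adjustment over 18769 probe sets. Symbols came from the platform annotation, updated through RefSeq: 13647 probe sets had 1 symbol, 402 several and 4720 none, and only those with 1 symbol are named. No pair of arrays held identical values. Where nothing says more than that replicates are biological, p-values measure the spread between these samples. The number of arrays limits the precision. Lists are described by counts and medians, without a set test. The members and lists were chosen with earlier results of these data known. From the lists as first written, 9 mistaken members were later removed and 3 names respelled. Genes were named by rule: bam, aly, sa, tMAC and testis TAF members and set regulators whatever their value, the 12 largest called differences in each direction without overlap of arrays, up to 4 called members of each list (or the largest where none was called), and the 4 largest uncharacterised genes in each direction. Of 146 such genes 11 have several probe sets, and in 6 these disagree in their calls, though not always in direction (Taf12L, Tsf1, bol, eIF4EHP, mod(mdg4) and sls). Alternatives were other scalings, pseudocounts, filters, thresholds, a 6-array fit, array weights, the replicate number as a block and leaving out each array.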

Additional observations from a re-analysis of the deposited data

How the results depend on the processing

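Of 127 named genes that were called, 108 were called under all 20 alternatives, and 0 of the named genes reversed. Many of these genes were named for large called differences in these same data, so this says little about the calls as a whole. Dropping the fold minimum could not end a call. Leaving out 1 array at a time gave 2471 to 3046 called probe sets (954 to 1256 higher, 1517 to 1790 lower), the extremes being without sa replicate 1 and without sa replicate 3, and 3070 from replicates 1 and 2 alone. Without the fold minimum 9018 probe sets passed the adjusted p, 5815 higher and 3203 lower, and 289 list members against 158. The median difference of 0.12 became 0.0949 with 1 probe set per gene, 0.0651 with quantile normalization, 0.30 with median centring, 0.18 with ribosomal protein centring, 0.19 with a pseudocount of 1, 0.0567 with a pseudocount of 64 and 0.0475 over probe sets with a mean of 64 or more in some genotype. The 1 probe set per gene and the filter at 64 change which probe sets enter the median and not their values, a larger pseudocount compresses differences of dim probe sets, and the centrings shift whole arrays. For quantile normalization the cause was not tested. Quantile normalization split the calls 1435 higher and 1463 lower, and ribosomal protein centring 1263 and 1527. A pseudocount of 64 ended 13 of the 127 calls, and quantile normalization and median centring 7 each. The same replicate number did not mark paired samples: deviations from the genotype means correlated at 0.198, -0.335 and 0.0194 for numbers 1 to 3. With the replicate block, 2699 probe sets were called (1097 higher, 1602 lower). Dim genes limit precision: 893 of the 1426 lower genes were under 64 in aly, where their fold is understated. The planned count of promoter motifs was not run.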

Other observations

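Further members of the lists had these differences. Among testis mitochondrial paralogs, ttm2 (-4.07), UQCR-11L (-4.22) and COX6CL (-4.23) were lower by amounts close to that of ttm3, while COX6AL2 was at -1.01 on the fold limit. Among the cup and comet genes p-cup (-2.80), boly (-2.58), d-cup (-2.47) and sunz (-2.07) were lower, while soti (-0.06), spaw (0.10) and m-cup (0.49) were not called. Among replication genes PolA1 (1.59), RnrL (1.57), PolE1 (1.53), Mcm2 (1.39) and Orc1 (1.34) were higher, and Orc4 (-0.07), Orc5 (-0.29) and Psf1 (-0.42) were not called. The death-domain gene Fadd (1.45) was higher with Dark. All were named after their values were seen.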
